A study of Mus musculus with 32 samples.

Results

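H3K4me1 was compared between mouse HoxB8 progenitors that carried an Asxl1 guide together with CSF3R T618I (2 libraries, called double here) and progenitors that carried the same guide with an empty vector (3 libraries, called guide here). These 5 libraries were chosen by mark and genotype label alone, out of 10 H3K4me1 libraries and 32 samples in the series. HoxB8 cells are mouse bone marrow progenitors that an estrogen-dependent HoxB8 keeps immature and dividing, and estrogen had been removed for 48 h in all groups. The genotype was sgRNA Asxl1 B2 with pMICH-CSF3R-T618I in double and sgRNA Asxl1 B2 with pMICH-Empty in guide, so both groups shared the guide and only the vector differed. The remaining H3K4me1 libraries came from control cells (n = 2, non-targeting guide and pMICH-Empty) and CSF3R cells (n = 3, non-targeting guide and pMICH-CSF3R-T618I). All cells had been grown with stem cell factor, 1 guide sequence was used, and the labels do not say whether a line was a clone or whether libraries came from separate cultures. The p-values below therefore measure only the spread between these libraries, which may be technical. The comparison asks how CSF3R T618I changed the enhancer landscape of cells that already carried the Asxl1 guide.

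H3K4me1 is a methylation mark that Kmt2c and Kmt2d place at enhancers, whether active or only primed, and on the flanks of active promoters. CSF3R is the receptor for G-CSF, the cytokine that drives neutrophil production. T618I is a mutation of its membrane-proximal part that signals without ligand through Jak kinases and Stat3 and Stat5, is the hallmark of chronic neutrophilic leukaemia, and is often accompanied in patients by truncation of ASXL1. Asxl1 is a chromatin protein that acts with the deubiquitinase Bap1 on histone H2A.

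The promoters of 4 genes show what the peaks covered, in the 250 bases before the RefSeq start (GRCm38.p6, the build also called mm10). They were picked after the values were seen, because H3K4me1 differed around each of these genes. The promoter of Retnlg, whose window also differed, is not printed. Peaks covered all of it in both control and all CSF3R libraries, guide library 3 and double library 1. They covered 0.172 of it in guide library 1 and none in guide library 2 or double library 2. Capitals mark matches on either strand to the Stat motif TTCNNNGAA, the C/EBP motif TTGCNNAA, the PU.1 motif GAGGAAG, the Runx motif TGTGGT or the GATA motif AGATAA.
Fpr2: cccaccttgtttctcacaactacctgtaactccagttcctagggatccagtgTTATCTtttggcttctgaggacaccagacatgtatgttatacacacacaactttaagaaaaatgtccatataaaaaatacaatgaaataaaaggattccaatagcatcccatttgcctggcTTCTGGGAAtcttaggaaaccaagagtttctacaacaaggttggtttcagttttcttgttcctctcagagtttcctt
Mmp8: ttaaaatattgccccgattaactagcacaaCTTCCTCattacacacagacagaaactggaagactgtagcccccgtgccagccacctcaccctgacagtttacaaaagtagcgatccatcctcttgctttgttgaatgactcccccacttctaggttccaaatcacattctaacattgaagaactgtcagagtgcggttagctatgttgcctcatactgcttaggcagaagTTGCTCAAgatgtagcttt
Socs3: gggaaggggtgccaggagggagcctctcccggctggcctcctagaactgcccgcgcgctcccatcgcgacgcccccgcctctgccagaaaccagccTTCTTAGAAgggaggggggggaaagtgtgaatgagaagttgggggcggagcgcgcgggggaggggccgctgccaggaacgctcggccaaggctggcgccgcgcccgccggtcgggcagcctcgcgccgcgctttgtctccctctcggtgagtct
Cx3cr1: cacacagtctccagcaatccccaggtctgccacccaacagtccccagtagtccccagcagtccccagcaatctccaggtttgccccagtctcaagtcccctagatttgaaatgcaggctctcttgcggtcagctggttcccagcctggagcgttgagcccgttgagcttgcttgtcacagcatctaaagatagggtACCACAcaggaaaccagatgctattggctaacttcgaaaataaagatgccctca
The Fpr2 promoter (chr17:17887574-17887823, plus strand), which serves a formyl peptide receptor of neutrophils, holds a Stat motif 77 bases and a GATA motif 198 bases before the start. Peaks covered none of it in the 3 guide libraries and all of it in both double and all 3 CSF3R libraries, while in control all of it was covered in library 1 and none in library 2. The Mmp8 promoter (chr9:7558179-7558428, plus strand), which serves neutrophil collagenase, holds a C/EBP motif 19 bases and a PU.1 motif 220 bases before the start. It was uncovered in guide, fully covered in CSF3R, and covered in double library 1 but not in double library 2. The Socs3 promoter (chr11:117969367-117969616, minus strand), which serves a feedback inhibitor of Stat3 signalling, holds a Stat motif 154 bases before the start, and a peak reached it only in CSF3R library 3. The Cx3cr1 promoter (chr9:120068297-120068546, minus strand), which serves a chemokine receptor of monocytes, holds a Runx motif 54 bases before the start and lay wholly in peaks in all 10 libraries, so the lower value around Cx3cr1 described below came from its flanks. The Stat motif was present in 10.0% of 150 promoters whose surrounding window was higher in double, in 10.6% of 123 whose window was lower, and in 6.57% of all 1506 tested. The C/EBP motif was present in 8.67%, 8.13% and 8.43% of the same sets. Higher and lower windows thus held either of these motifs about equally often. The PU.1, Runx and GATA motifs were present in 14.7%, 13.9% and 7.57% of all tested promoters, and a match is only a match of letters.

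The files hold peak positions with no read counts or heights, so the value used is the covered fraction, the share of a region's bases that lay in a library's peaks, and sequencing depth is unknown. Depth alone can lengthen a list of peaks, and in bulk libraries fewer cells with the mark and less mark per cell cannot be told apart. The 3 guide libraries held 14479 to 18527 peaks over 26.6 to 38.3 Mb, and double held 21185 and 17174 peaks over 43.5 and 29.99 Mb. Covered length was 36.7 ± 9.55 Mb in double (SD, n = 2) against 33.3 ± 5.99 Mb in guide (SD, n = 3), a log2 difference of 0.13 (exact permutation test, 2-sided, p = 0.8, where 0.2 is the smallest p that 2 against 3 libraries allow). Its sign turned to -0.13 without double library 1 and to -0.02 without guide library 2. The share of covered length more than 5 kb from every gene start used was 82.4 ± 0.542% in double and 81.4 ± 0.710% in guide. The groups thus overlapped in both measures. The peaks lay in different places, however. The Jaccard index, the shared bases divided by all bases covered by either of a pair of libraries, averaged 0.682 within guide, 0.611 within double and 0.493 between double and guide (range 0.448 to 0.515). Double was nearer to CSF3R (mean 0.574) than to guide, and guide was nearest to control (mean 0.672).

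Distal regions, the merged peaks more than 5 kb from every gene start used, gained H3K4me1 in double more often than they lost it. Of 16983 distal regions tested with limma, 2179 had a higher covered fraction in double (12.8%) and 1035 a lower one (6.09%) at a Benjamini-Hochberg adjusted p under 0.05. The higher regions were mostly unmarked in guide. Their mean covered fraction was 0.0805, 0.0398 and 0.0683 in the 3 guide libraries and 0.898 and 0.695 in the 2 double libraries. No guide library had a peak in 1429 of the 2179, and 575 were seen in the double libraries alone. Those 575 passed the minimum of 2 libraries only through double, so they could appear only as higher. Among regions with a peak in at least 3 libraries the same fit gave 1604 higher (11.2%) and 1035 lower (7.25%) of 14267. The lower regions ran the other way, with a peak in no double library at 516 of 1035. They were wider than the higher ones (median 2500 against 1700 bp) and lay inside a gene more often (66.3% against 45.7%, with 57.0% for all tested regions). Median distance to the nearest start was 32626 bp for higher and 31896 bp for lower regions. An IgG peak touched 11.2% of the higher, 15.4% of the lower and 10.3% of all tested regions. Closer to genes, within 5 kb of a start, fewer regions were called, 449 higher (7.66%) and 235 lower (4.01%) of 5859, with 225 (3.84%) and 94 (1.6%) for CSF3R against control. The count of higher regions was 3376 without double library 2, and the count of lower regions was 588 without double library 2, 612 without guide library 1 and 632 without guide library 3. Groups that do not overlap were common in any case, at 24.9% of all tested regions with double above guide and 15.4% with double below.

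**Figure D1:**
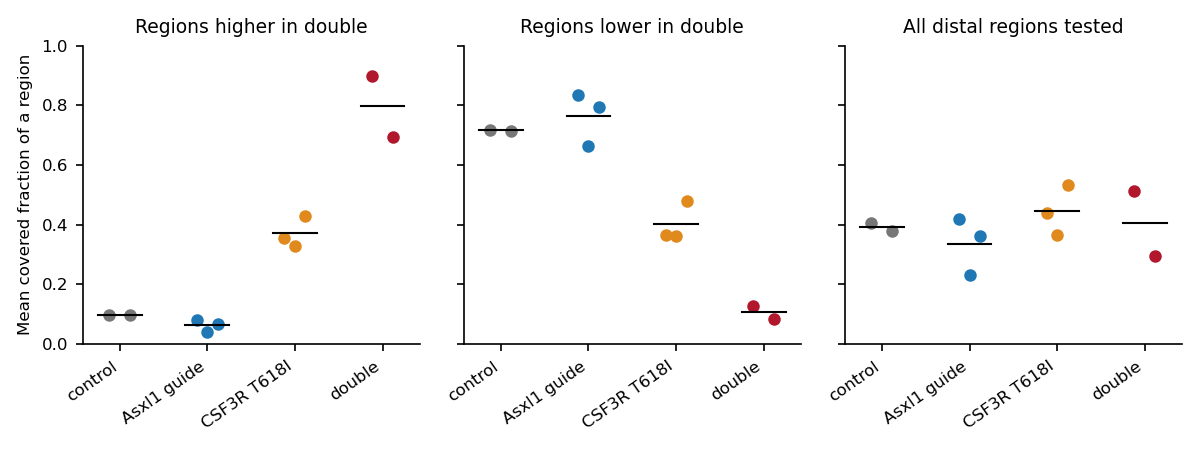
Mean covered fraction of H3K4me1 per region (y axis, 0 to 1) in each of the 10 libraries, grouped by genotype on the x axis, for the 2179 regions higher in double, the 1035 lower in double and all 16983 tested; points are libraries and lines are group means. In the left panel the double libraries sit at 0.898 and 0.695, CSF3R between 0.328 and 0.427 and guide below 0.1. The regions were chosen by the difference between double and guide. Control and CSF3R had no part in that difference, but entered the merging of peaks, the minimum of 2 libraries and the estimate of spread.

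The CSF3R and control libraries had no part in the difference between double and guide and show what CSF3R T618I did without the guide. They did enter the merging of peaks, the minimum of 2 libraries and the estimate of spread, and so affected which regions were called. With only the 5 libraries of guide and double fitted, 1363 of the 2179 higher and 604 of the 1035 lower calls were kept. Regions higher in double had a mean covered fraction of 0.0984 and 0.0959 in control and of 0.357, 0.328 and 0.427 in CSF3R. CSF3R thus lay between control and double in every library, and all 3 CSF3R libraries were above both control libraries. Over the 2179 higher regions the difference CSF3R minus control was above 0 in 1479, below 0 in 103 and exactly 0 in 597, with a median of 0.20 against 0.0348 over all tested regions. Over the 1035 lower regions it was below 0 in 900 and above 0 in 92, with a median of -0.28. CSF3R against control called 1053 regions higher (6.2%) and 629 lower (3.7%) in the same fit. The comparisons shared 525 higher regions, which is 24.1% of those called in double against guide and 49.9% of those called in CSF3R against control, and 244 lower regions, which is 23.6% and 38.8%. Opposite calls were made at 8 regions, 5 of them higher in double and 3 lower. Without control library 1 or 2 the 769 regions shared in the same direction fell to 426 or 419. Over all distal regions the differences with and without the guide had a Pearson r of 0.49, a description across regions that share libraries within each difference.

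**Figure D2:**
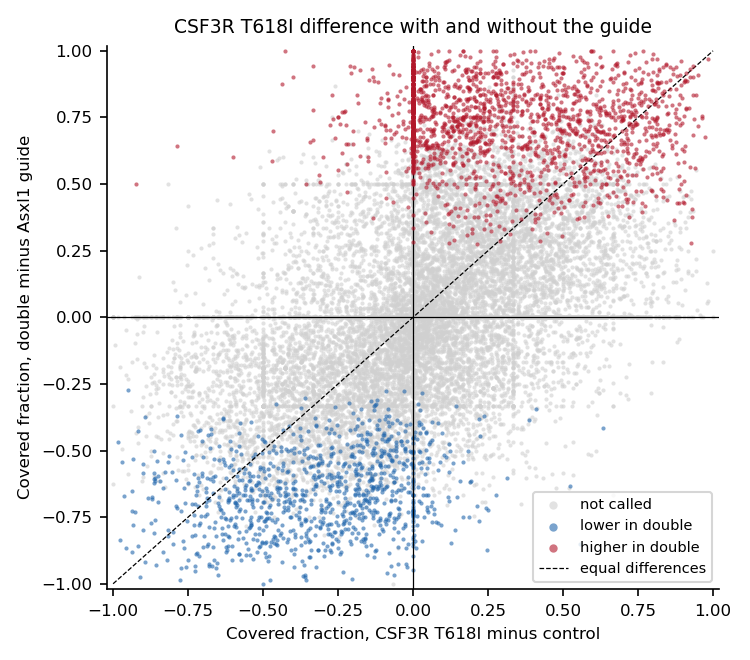
Each point is 1 of 16983 distal regions, placed by the covered fraction of CSF3R minus control (x axis) and of double minus guide (y axis); red regions were higher in double, blue lower, grey not called, and the dashed line marks equal differences. Of the red points 1479 lie right of 0 and 103 left of it, and of the blue points 900 lie left of 0 and 92 right of it.

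Some of the 2179 higher regions lay nearest to genes of cytokine signalling. JAK-STAT targets and feedback genes had 27 of 106 regions higher (25.5%) and cytokine receptor genes 21 of 93 (22.6%), against 12.8% over all regions. Genes outside these 2 lists also had many, such as Runx1 with 11 and Hlx with 10. A region is assigned to the nearest gene start, which is a position and not evidence of a target. Socs1, the feedback inhibitor of Jak kinases, had 14 distal regions and 12 were higher in double (10 to 13 when each library was left out, and 9 when a peak in at least 3 libraries was required), lying 11.9 to 120 kb downstream and mostly inside the neighbouring gene Clec16a. Of the 12, 3 had no peak outside double and so could only be called higher. Together the 14 held 0.7, 1.0 and 0.0 kb of peaks in guide, 39.1 and 35.5 kb in double, 1.2 and 2.45 kb in control, and 20.4, 22.0 and 27.7 kb in CSF3R. The domain was thus nearly bare wherever CSF3R T618I was absent. Its parts differed. The region nearest to the gene (chr16:10767101-10780250, 13.2 kb wide) had a covered fraction of 0 in each guide library, 1 and 0.893 in double and 0.833, 0.852 and 0.863 in CSF3R, and double minus guide was 0.947 ± 0.0757 (SE, adjusted p = 0.000299). Farther out, 83.3 kb from Socs1 inside Clec16a, a 4.4 kb region (chr16:10700051-10704450) stood at 0.989 in both double libraries, at 0 in guide and at 0, 0.0455 and 0.136 in CSF3R. Here the difference double minus guide exceeded CSF3R minus control by 0.928 (adjusted p of that difference 0.00379), which was not called with any overlap in place of the covered fraction (adjusted p = 0.749). This region had 200 bp in IgG peaks and gave no value once peaks overlapping IgG peaks were removed. Nearer to the gene, chr16:10754251-10762750 was higher by 0.801, but 450 bp of it lay in IgG peaks and the sign turned to -0.276 once peaks overlapping IgG peaks were removed.

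Il2ra, the alpha chain of the interleukin-2 receptor, had 4 distal regions and all 4 were higher (2 to 4 when each library was left out, with 2 without guide library 1 or double library 1). At the region 6.37 kb upstream (chr2:11635101-11637750) the covered fraction was 0.0943, 0 and 0 in guide, 1 and 0.906 in double and 0.17, 0.434 and 0.321 in CSF3R. Double minus guide was 0.921 ± 0.0991 (SE, adjusted p = 0.000688), with double above every other library. The window at the Il2ra start gave the same order, with 0.04, 0.035 and 0.03 in guide, 0.505 and 0.275 in double and 0.105, 0.125 and 0.18 in CSF3R (difference 0.355 ± 0.061 SE, adjusted p = 0.00515). Il7r, the interleukin-7 receptor, had no peak in its 8 distal regions in any control or guide library, and 5 were higher in double (3 to 6 when each library was left out, with 3 without guide library 1 or 3, and 3 when a peak in at least 3 libraries was required). The largest rise among these 5 was at chr15:9579751-9582350, where double stood at 0.942 and 0.904 and CSF3R at 0.769, 0.731 and 0.962 (difference 0.923 ± 0.0913 SE, adjusted p = 0.000501). Myc, the growth regulator, had 6 of 9 regions higher (5 to 6 when each library was left out), between 60.5 and 187 kb from the gene. All 6 were uncovered in control and guide, and 5 of them also in all 3 CSF3R libraries, so these 5 entered the test only through double. At the sixth (chr15:62156951-62159450) double stood at 1 and 0.86 and CSF3R at 0, 0 and 0.32.

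**Figure D3:**
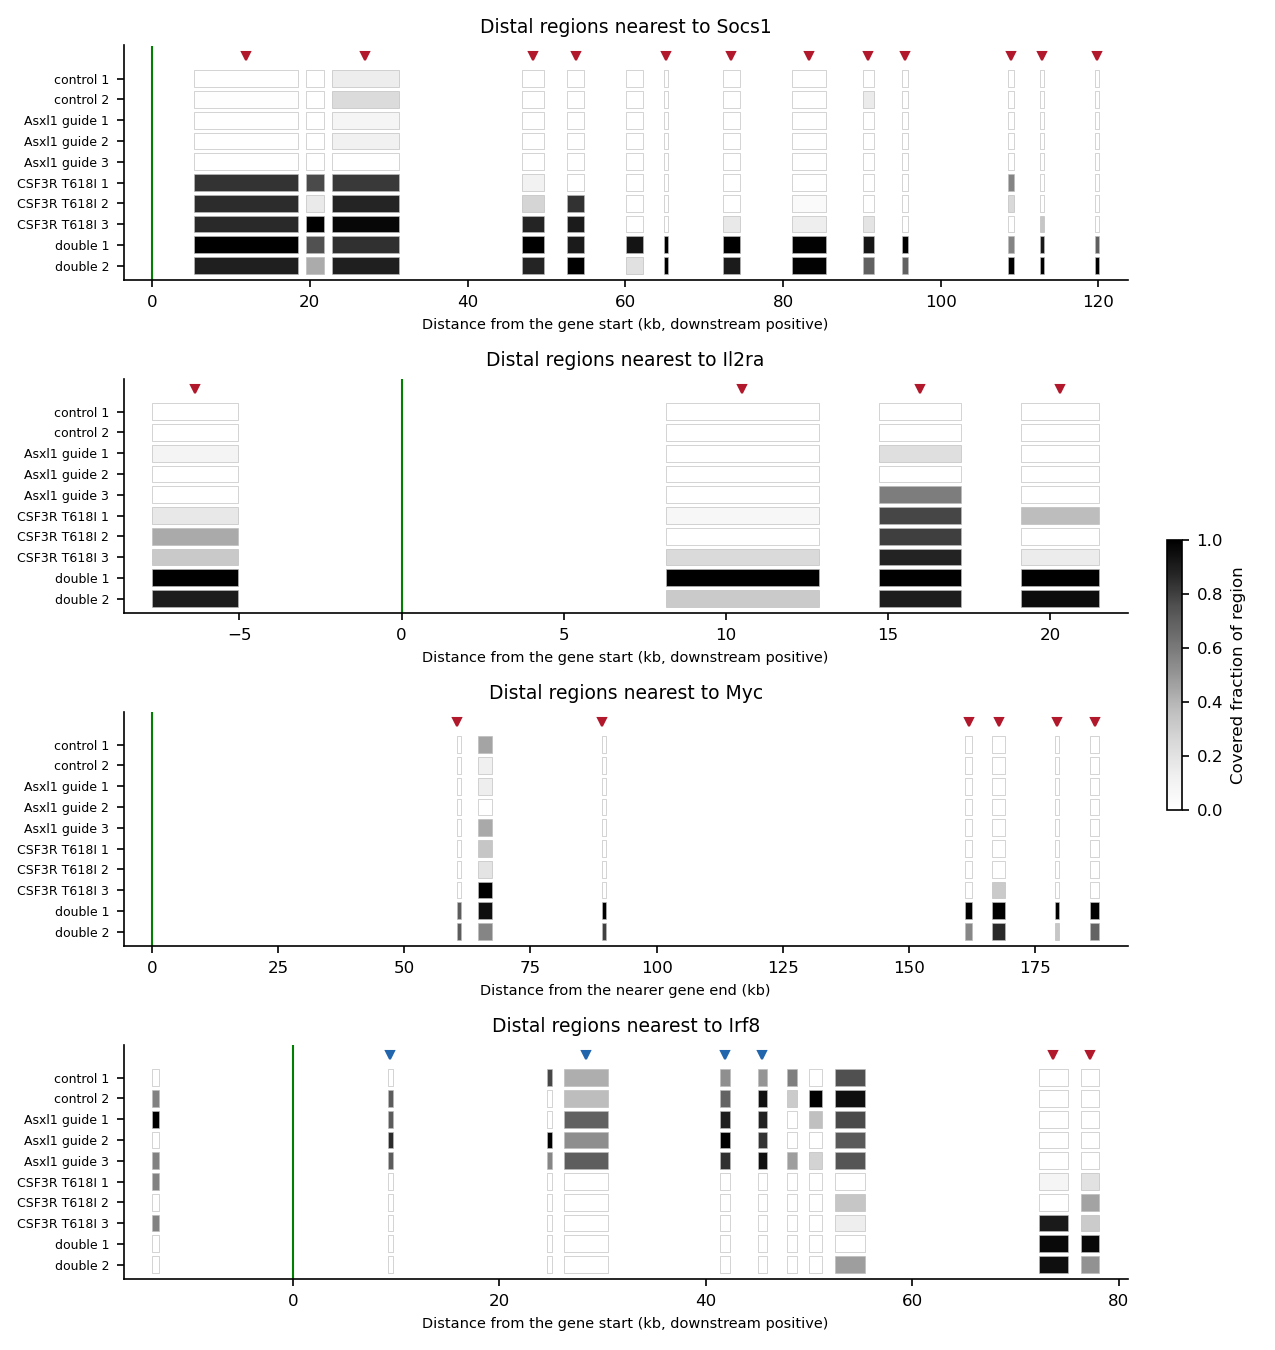
Covered fraction of H3K4me1 (grey scale, 0 to 1) in each distal region nearest to Socs1, Il2ra, Myc and Irf8, with 1 row per library and the x axis giving the distance from the gene start in kb (for Myc from its nearer end); red triangles mark regions higher in double and blue triangles regions lower. Socs1 regions near the gene are dark in CSF3R and double, the Myc regions that were called are dark in double, and 3 Irf8 regions between 28.4 and 45.5 kb are empty in every CSF3R and double library.

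Irf8, a transcription factor of monocyte and dendritic cell development, lost H3K4me1 at 4 of its 11 distal regions and gained it at 2. In the region 28.4 kb downstream (chr8:120764901-120769150) the covered fraction was 0.694, 0.529 and 0.706 in guide and 0 in both double libraries, a difference of -0.643 ± 0.085 (SE, adjusted p = 0.0017). At 41.9 kb (chr8:120780051-120781000) guide stood at 0.895, 1 and 0.842 against 0 in double (difference -0.912 ± 0.0879 SE, adjusted p = 0.000462). At 45.5 kb (chr8:120783651-120784550) guide stood at 0.889, 0.833 and 0.944 against 0 in double (difference -0.889 ± 0.126 SE, adjusted p = 0.00237). These 3 regions were also at 0 in all 3 CSF3R libraries, and CSF3R minus control passed the threshold at each (adjusted p = 0.0234, 0.00481 and 0.0105). The loss was therefore seen with and without the guide. The fourth lower region, at 9.44 kb, was a 350 bp piece of which 300 bp lay in IgG peaks, and its call was lost without any 1 of the 5 guide and double libraries (adjusted p up to 0.118). The higher regions lay beyond, at 73.7 and 77.2 kb, and the nearer of them lost its call without either control, any guide or either double library (adjusted p up to 0.15). Csf1r, the receptor for the macrophage growth factor, and Cx3cr1 each had 1 distal region lower, in the Csf1r case with 0 in both double libraries and 0.434, 0.434 and 0.579 in guide (difference -0.482 ± 0.124 SE, adjusted p = 0.0301), a call lost without any 1 of the 5 guide and double libraries; the Cx3cr1 call was lost in 8 of the 10 such fits, all but those without CSF3R library 1 or 3.

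Losses also lay near some genes of progenitor growth and early granulocyte development, picked as examples after their values were seen. On the lists of such genes, cell cycle and growth genes had 14 of 52 regions higher (26.9%) and 5 lower (9.62%). Stem and progenitor genes had 6 of 69 higher (8.7%) and 3 lower (4.35%). Over all regions 12.8% were higher and 6.09% lower, so having more higher than lower regions was not particular to these lists. Myb, which sustains immature blood cells, had 1 of 7 regions higher and 1 lower. The lower one was a 13.8 kb region inside the gene (chr10:21128601-21142350) with a covered fraction of 0.804, 0.647 and 0.742 in guide, 0.236 and 0.0982 in double and 0.855, 0.676 and 0.764 in CSF3R. Double minus guide was -0.564 ± 0.0995 (SE, adjusted p = 0.00646), with double alone below all other libraries. Ccnd2, a D-type cyclin, was lower at 2 of 4 regions (2 to 3 when each library was left out), and its 4 regions held 7.6, 5.9 and 7.1 kb of peaks in guide, 0.5 and 0.2 kb in double and 3.35, 2.4 and 6.05 kb in CSF3R. Cebpa, the transcription factor that starts granulocyte development, was lower at 1 of 3 regions, 14.4 kb away (chr7:35132901-35134500), with 0.625, 0.656 and 0.906 in guide against 0.25 and 0.125 in double (difference -0.542 ± 0.109 SE, adjusted p = 0.0115). Cdk6, a kinase partner of D-type cyclins, was lower over a 21.2 kb region (difference -0.441, adjusted p = 0.0251), a call lost without guide library 1, guide library 3 or double library 2 (adjusted p up to 0.0754). Foxp1, Kdr, Rev1, Slc39a11 and Bcas1 had the most lower regions, 5 each, and these counts were 2 or 3 without guide library 3.

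Hlx, a homeobox factor of blood and immune cells, and Runx1, a core factor of blood formation, had the most higher regions after Socs1. Hlx had 10 of 16 higher (7 to 12 when each library was left out) and held 14.3, 11.6 and 12.9 kb of peaks in guide against 45.4 and 36.6 kb in double, with 30.5, 22.4 and 31.9 kb in CSF3R. Runx1 had 11 of 28 higher (6 to 12 when each library was left out, with 6 without any 1 guide library, and 7 when a peak in at least 3 libraries was required), at 36.2 to 371 kb. Some of its regions were shared with CSF3R cells and others were not. At chr16:92861651-92862900 double stood at 1 and 0.92, CSF3R at 0.92, 0.8 and 0.96, and guide and control at 0 (difference 0.96 ± 0.0828 SE, adjusted p = 0.00033). At chr16:93195651-93198450 double stood at 0.946 and 0.679 and CSF3R at 0.304, 0.286 and 0.393, with 0 in guide (difference 0.812 ± 0.0995 SE, adjusted p = 0.00119). Akap6, a kinase-anchoring protein, had 9 of 10 higher (6 to 9 when each library was left out, with 6 without guide library 1 or 3), from 0.85, 0.85 and 0.65 kb in guide to 18.9 and 11.8 kb in double, while CSF3R held 1.95, 0.75 and 2.75 kb. Most of its regions were seen in double alone, and only 2 were called when a peak in at least 3 libraries was required. Atxn1, a transcriptional repressor, had 9 of 21 higher, a count that fell to 4 without double library 1 and to 5 without any 1 guide library.

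Among single regions, the largest gains in covered bases lay in or near Prkcq, Slc16a12 and Swap70. A 21.2 kb region inside Prkcq (chr2:11191151-11212350), which encodes a protein kinase C of T cell and mast cell signalling, went from 0.0094, 0 and 0.0212 in guide to 0.993 and 0.738 in double, with 0.557, 0.361 and 0.67 in CSF3R (difference 0.855 ± 0.117 SE, adjusted p = 0.00195). A 22.8 kb region inside Swap70 (chr7:110265701-110288500), an actin regulator of mast and B cells, was marked in all groups and rose from 0.447, 0.331 and 0.456 in guide to 0.947 and 0.943 in double (difference 0.534 ± 0.0841 SE, adjusted p = 0.00391). CSF3R stood as high there, at 0.892, 0.991 and 0.901. The largest losses included a 20.6 kb region near Ppp1cb, a phosphatase subunit (chr5:32420901-32441500, -0.457 ± 0.0988 SE, adjusted p = 0.0155), and an 11.5 kb region inside Pcnx (chr12:81885001-81896500), from 0.804, 0.465 and 0.743 in guide to 0.0217 and 0 in double (difference -0.66 ± 0.116 SE, adjusted p = 0.00638). At the Pcnx region CSF3R was lower than control too (-0.581, adjusted p = 0.0185). A 10.8 kb region inside Hpcal1 fell by 0.777 (adjusted p = 0.00213), but 3450 bp of it lay in IgG peaks and the difference shrank to -0.152 when peaks overlapping IgG peaks were removed.

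Around gene starts the gains and losses were nearly balanced. The covered fraction of a 10 kb window at each gene start (or gene end, where no start entry was used) passed the minimum of 0.2 in at least 2 libraries at 1969 genes. Of these windows 202 were higher in double (10.3%) and 172 lower (8.74%), with a median difference of -0.0067. Neighbouring genes share windows, and 32 of the higher and 32 of the lower windows had their centre within 10 kb of another called the same way. CSF3R against control called 141 windows higher (7.16%) and 28 lower (1.42%). It shared 82 of the 202 higher windows (40.6%) and 11 of the 172 lower ones (6.4%), with no opposite call. Without double library 1 the counts were 93 higher and 83 lower, and the lower count was 59 without double library 2, 88 without guide library 1 and 95 without guide library 3. Of the windows named below, those of Il4ra, Mmp8, Retnlg, Cebpe, Cx3cr1 and Csf2rb were not called at a width of 2 kb, and those of Scimp, Asb2, Il2ra and Mmp8 were not called when any overlap replaced the fraction.

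Late neutrophil genes, which make secondary and tertiary granules and the receptors of mature cells, were called higher at 5 and lower at 1 of 20 tested windows, against 10.3% and 8.74% of all windows. The windows of Fpr1 and Fpr2 are both among the 5 and share most of their bases, so they largely count the same peaks. Fpr1, a formyl peptide receptor, was uncovered in all 3 guide libraries and stood at 0.461 and 0.385 in double, 0.12 and 0.03 in control and 0.6, 0.42 and 0.47 in CSF3R. Double minus guide was 0.423 ± 0.0566 (SE, adjusted p = 0.00185) and CSF3R minus control 0.422 (adjusted p = 0.00272), so the rises with and without the guide had nearly the same size. Fpr2, its neighbour, rose by 0.453 ± 0.0857 (SE, adjusted p = 0.00812), a call lost without double library 1 (adjusted p = 0.0759). Mmp8 went from 0, 0.025 and 0 in guide to 0.397 and 0.217 in double, below the 0.617, 0.402 and 0.547 of CSF3R (difference 0.299 ± 0.0693 SE, adjusted p = 0.0176, lost without guide library 3 or double library 1, adjusted p up to 0.132). Double was not tested against CSF3R. The difference between double minus guide and CSF3R minus control was not called at Mmp8 or Retnlg (limma interaction, adjusted p = 0.668 and 0.11). Retnlg, a secreted resistin-like protein, stood at 0.3 and 0.155 in double and at 0.54, 0.56 and 0.575 in CSF3R. Its rise over guide was 0.172 ± 0.0466 (SE, adjusted p = 0.0319) and was lost in 6 of the fits that left out a library: either control, any guide and double library 1 (adjusted p up to 0.163). Il1b, an inflammatory cytokine, rose by 0.248 ± 0.0609 (SE, adjusted p = 0.0226), a call lost without guide library 3 or either double library. Guide had the lowest mean there, with 0.265, 0.11 and 0.215 against 0.465 and 0.425 in double. Control stood at 0.34 and 0.385 and CSF3R at 0.35, 0.265 and 0.44. CSF3R minus control was -0.0108, and the difference between the differences was not called (adjusted p = 0.237).

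Cxcr2, the chemokine receptor of mature neutrophils, was the window that was lower. It stood at 0.895, 0.88 and 1 in guide and at 0.645 and 0.615 in double, with 0.87, 0.875 and 1 in CSF3R (difference -0.295 ± 0.0594 SE, adjusted p = 0.0109, lost without either double library, adjusted p up to 0.0609). A distal region 13.5 kb from Cxcr2 (chr1:74164401-74170650) moved the opposite way, from 0.36, 0.208 and 0.312 in guide to 1 and 0.84 in double, with 0.808, 0.616 and 0.808 in CSF3R (difference 0.627 ± 0.102 SE, adjusted p = 0.00448). The mark around this gene was thus lower at the start and higher beyond it.

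**Figure D4:**
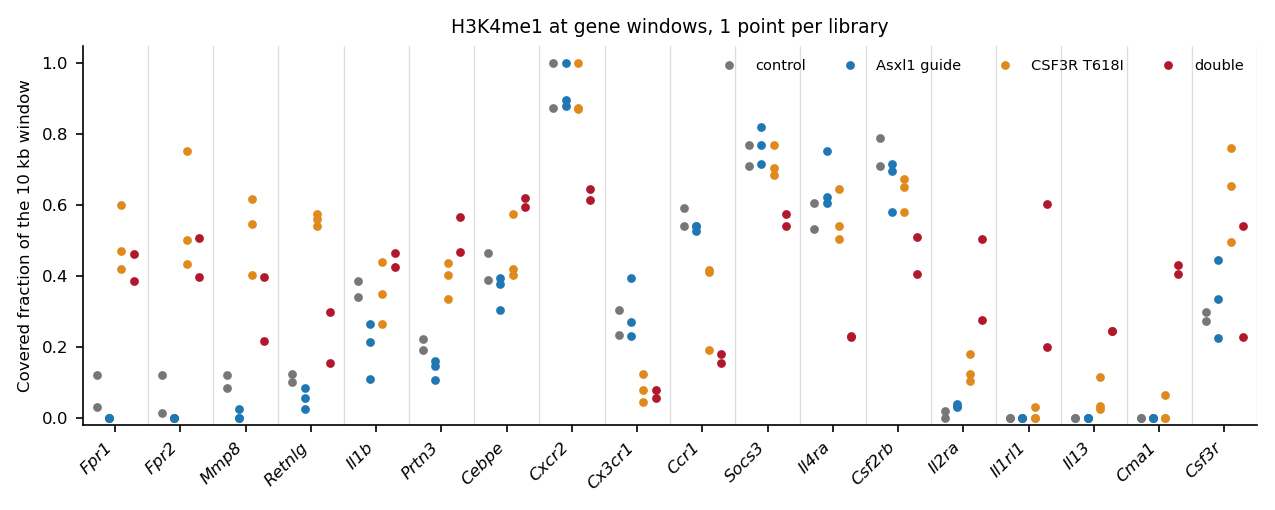
Covered fraction of the 10 kb window (y axis, 0 to 1) at 18 genes, with 1 point per library coloured by genotype. Fpr1, Fpr2, Mmp8 and Retnlg have guide at or near 0 and double below or level with CSF3R, Cma1 and Il2ra have double above every other library, and Socs3, Il4ra and Cxcr2 have double below every other library.

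Primary granule and early neutrophil genes, which mark promyelocytes, were higher at 2 and lower at 0 of 14 tested windows, a share near the 10.3% of all windows called higher. Prtn3, the granule protease proteinase 3, stood at 0.147, 0.107 and 0.162 in guide, 0.467 and 0.567 in double, 0.192 and 0.222 in control and 0.337, 0.402 and 0.437 in CSF3R. Double was above every other library (difference 0.378 ± 0.0455 SE, adjusted p = 0.00113), and CSF3R minus control was 0.185 (adjusted p = 0.0394). Cebpe, the transcription factor that drives granulocyte maturation, rose by 0.248 ± 0.0576 (SE, adjusted p = 0.0176) at its gene end, but 450 bp there lay in IgG peaks. That call was lost without either double library (adjusted p up to 0.0858), and the sign turned to -0.0112 when peaks overlapping IgG peaks were removed.

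Windows of mast cell, basophil and eosinophil genes were higher at 3 and lower at 1 of 10 tested, against 10.3% and 8.74% of all windows. The 3 higher ones, Cma1, Il13 and Il1rl1, reached the minimum of 0.2 in the double libraries alone. They entered the test only through double and so could only be called higher. Cma1, the mast cell chymase, was uncovered in guide and control, stood at 0.43 and 0.405 in double and at 0, 0 and 0.065 in CSF3R. Double minus guide was 0.4175 ± 0.035 (SE, adjusted p = 0.000295), and the difference from CSF3R minus control was itself 0.396 (adjusted p = 0.0106). That interaction call was lost without either control library (adjusted p = 0.0791) or guide library 3 (adjusted p = 0.0549). Il13, a type-2 cytokine, rose from 0 in guide to 0.245 in each double library (SE 0.0372, adjusted p = 0.00334), with 250 bp of the window in IgG peaks. Il1rl1, the interleukin-33 receptor, rose from 0 to 0.603 and 0.2 (difference 0.402 ± 0.0928 SE, adjusted p = 0.0174), while CSF3R stood at 0.03, 0 and 0. The call at Il1rl1 was lost when only the 5 libraries of guide and double were fitted (adjusted p = 0.107). The difference from the rise in CSF3R was not called at Il13 or Il1rl1 (adjusted p = 0.166 and 0.239). Of the 5 mast cell and basophil markers, 3 had a peak in each guide library and 4 in each double library, with a mean covered fraction of 0.117, 0.064 and 0.111 in guide and 0.203 and 0.096 in double. Fcer1a, the receptor subunit that defines these cells, was at 0 in all 10 libraries, and Ms4a2, its partner, was at 0 in all but double. The 3 eosinophil markers averaged 0.128 and 0.103 in double and at most 0.0461 in every other library. Among them Ccr3 was at 0 in all 10 libraries and Epx in all but double library 2. Whether more such cells were present in double was not tested.

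Cytokine signalling genes were called in both directions. Over all windows 10.3% were higher and 8.74% lower. Cytokine receptor genes were higher at 2 (Il2ra and Il1rl1) and lower at 1 of 14 tested windows. Both higher ones reached the minimum of 0.2 only in double, so they could only be called higher. JAK-STAT targets and feedback genes were higher at 1 (Bcl3) and lower at 2 of 14 tested windows. Among those that were lower, Il4ra, the interleukin-4 receptor, stood at 0.607, 0.622 and 0.752 in guide, 0.232 and 0.227 in double and 0.505, 0.54 and 0.645 in CSF3R (difference -0.431 ± 0.0582 SE, adjusted p = 0.00193), and CSF3R minus control was -0.0062. Double was below every other library, but the difference between the differences was not called (adjusted p = 0.0608). Socs3 stood at 0.715, 0.82 and 0.77 in guide and 0.54 and 0.575 in double (difference -0.211 ± 0.0452 SE, adjusted p = 0.014). It lost its call without double library 1 (adjusted p = 0.081), and its sign turned to 0.0017 without peaks overlapping IgG peaks and to 0.0083 in a 2 kb window. Csf2rb, the shared beta chain of the GM-CSF receptor, was lower by a difference of -0.206 (adjusted p = 0.0342), lost without guide library 1 or 3 or either double library (adjusted p up to 0.183). Ccr1, a chemokine receptor on the chemokine list, stood at 0.541, 0.526 and 0.541 in guide and 0.181 and 0.156 in double (difference -0.367 ± 0.0647 SE, adjusted p = 0.0058). Windows of monocyte, macrophage and dendritic genes were higher at 1 and lower at 1 of 10 tested. Cd74, the class II invariant chain, was the higher one, from 0, 0 and 0.025 in guide to 0.46 and 0.455 in double, with 0.3, 0.33 and 0.425 in CSF3R (difference 0.449 ± 0.0427 SE, adjusted p = 0.000513, not called with any overlap in place of the fraction). Cx3cr1, the lower one, stood at 0.27, 0.23 and 0.395 in guide, 0.055 and 0.08 in double and 0.045, 0.08 and 0.125 in CSF3R (difference -0.231 ± 0.0537 SE, adjusted p = 0.0177, lost without either double library, adjusted p up to 0.101).

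Among all windows, the largest differences were often close to presence against absence. Ambp, a plasma protein precursor, was at 0 in all guide and control libraries and at 0.63 and 0.67 in double and 0.655, 0.695 and 0.695 in CSF3R (difference 0.65 ± 0.0332 SE, adjusted p = 2.57e-05). Scimp, a membrane adaptor of immune cells, and Asb2, a ubiquitin ligase subunit of differentiating myeloid cells, rose by 0.588 ± 0.0345 and 0.588 ± 0.0427 (SE, adjusted p = 4.22e-05 and 0.00018) and stood as high in CSF3R. Il10, an anti-inflammatory cytokine on the chemokine and interleukin list, went from 0.16, 0.045 and 0.155 in guide to 0.825 and 0.708 in double (difference 0.646 ± 0.0878 SE, adjusted p = 0.00193). Muc1, a membrane mucin, rose by 0.692 ± 0.123 (SE, adjusted p = 0.00606), with 0.54 and 1 in double. Myl10, a myosin light chain, showed the largest loss, from 0.74, 0.61 and 0.71 in guide to 0 in both double libraries, with 0.565, 0.46 and 0.71 in CSF3R (difference -0.687 ± 0.0737 SE, adjusted p = 0.000749). Pde2a, a cyclic nucleotide phosphodiesterase, fell by 0.62 ± 0.0661 (SE, adjusted p = 0.000749) and Kcnip3, a calcium sensor, by 0.616 ± 0.0688 (SE, adjusted p = 0.000766).

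Several regulators of the pathway showed no called change at their windows. Csf3r itself stood at 0.445, 0.224 and 0.334 in guide and 0.54 and 0.229 in double (difference 0.0501 ± 0.105 SE, adjusted p = 0.79), with its sign turning under other settings. In CSF3R it stood at 0.655, 0.495 and 0.76 against 0.299 and 0.274 in control, a difference of 0.35 that was not called either (adjusted p = 0.0811). Spi1, the myeloid factor PU.1, differed by 0.0575 (adjusted p = 0.615) and Pim1, a Stat target kinase, by 0.0766 (adjusted p = 0.374). Gfi1, a transcriptional repressor on the early neutrophil list, differed by 0.148 (adjusted p = 0.159). The window at Asxl1 was covered to at most 0.113 in any library and was not tested, and the mutant receptor came from a vector, so neither label can be checked with these windows. Hoxa9, Meis1, Gata2 and Myc had no peak in their windows in any H3K4me1 library.

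By list, distal regions were called higher at shares above that of all regions for most of the lists. The lists and their members were chosen with earlier results of these data known, so the shares describe these lists and are not independent support. Lymphoid genes had 8 of 29 regions higher (27.6%), cell cycle and growth genes 14 of 52 (26.9%), and chemokine, interleukin and adhesion genes 20 of 86 (23.3%). JAK-STAT targets and feedback genes had 27 of 106 regions higher (25.5%) and 7 lower, cytokine receptor genes 21 of 93 (22.6%) and 6 lower, and AP-1, Egr and Nr4a genes 14 of 64 (21.9%) and 1 lower, against 12.8% higher over all regions. Late neutrophil genes had 6 of 26 higher and none lower, primary granule and early neutrophil genes 6 of 25 higher and 2 lower, and mast cell, basophil and eosinophil genes 7 of 35 higher and 1 lower. Monocyte, macrophage and dendritic genes ran the other way, with 3 of 25 higher and 6 lower (24.0%), against 6.09% lower over all regions, and 4 of the 6 were those of Irf8. Stem and progenitor genes had 6 of 69 higher (8.7%). The median difference was 0.243 for JAK-STAT genes and -0.161 for monocyte genes. Few genes carry these counts, since 12 of the 27 higher JAK-STAT regions belonged to Socs1 and 5 of the 8 higher lymphoid regions to Il7r. Genes such as Il7r, Junb, Myc and Kit stand on more than 1 list. The shares also include regions seen in double alone, which could only be called higher. When a peak in at least 3 libraries was required, higher regions fell from 12 to 9 at Socs1, 6 to 1 at Myc and 5 to 3 at Il7r. Il2ra kept all 4. The list shares under that minimum were not computed.

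**Figure D5:**
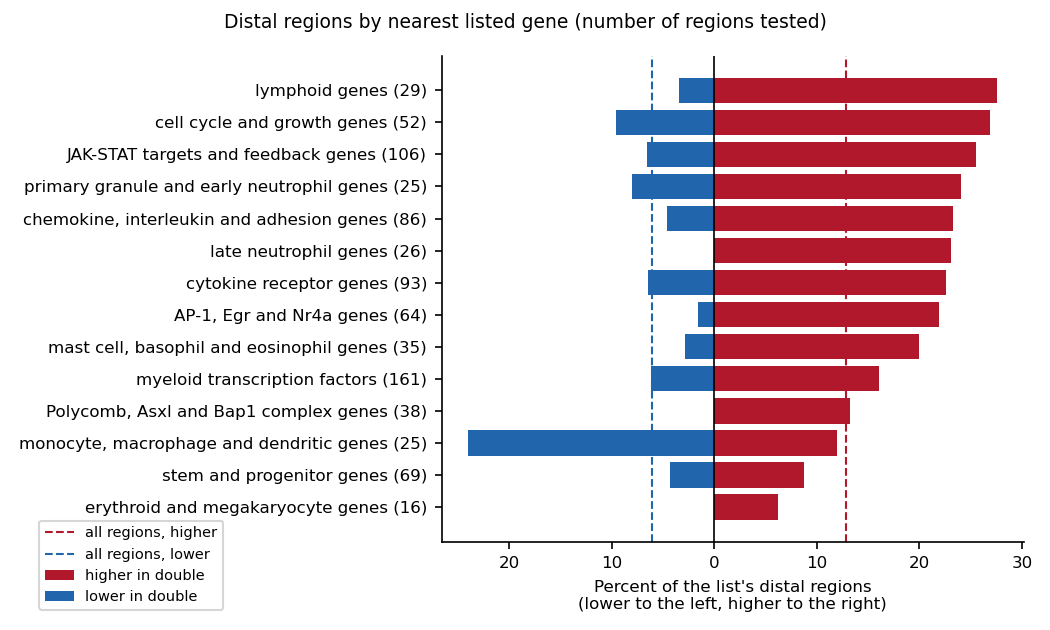
Share of distal regions called higher (red, right) or lower (blue, left) in double, in percent, for regions whose nearest gene is on a list, with the number of regions tested in brackets; dashed lines give the shares over all 16983 regions, 12.8% higher and 6.09% lower. The monocyte list has the longest blue bar (24.0%) and the JAK-STAT list reaches 25.5% higher. The lists were chosen with earlier results of these data known.

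The markers of blood cell types placed the cells in the granulocyte and monocyte lineage. Neutrophil precursor markers (Mpo, Elane, Prtn3, Ctsg, Ms4a3, Cebpe and Gfi1) all had a peak in both double libraries and 5 to 6 of 7 in guide, with a mean covered fraction of 0.371 and 0.360 in double and 0.175 to 0.233 in guide. In control the precursor markers averaged 0.276 and 0.267, and in CSF3R 0.307 to 0.394, a range that held both double libraries. Mature neutrophil markers averaged 0.376 and 0.298 in double and 0.270 to 0.338 in guide. They averaged 0.373 and 0.429 in control and 0.544 to 0.705 in CSF3R, so double stayed below every CSF3R library. Monocyte markers averaged 0.301 and 0.201 in double and 0.192 to 0.273 in guide, and the Irf8 window was at 0 or nearly so in every library (at most 0.0188). All 4 B cell and all 4 T cell markers were at 0 in all 10 libraries, and 3 or 4 of the 4 erythroid markers were at 0 in each.

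The Polycomb marks of the same genotypes, measured in other libraries, were sparse in these regions. H3K27me3 covered under 1.3% of the length of the higher, the lower or all regions in any library. H2AK119ub, the ubiquitin mark that Asxl1 and Bap1 act on, covered 2.34, 2.58 and 2.86% of the length of the higher regions in guide and 7.14 and 4.64% in double. In the lower regions it covered 1.36, 1.59 and 1.66% in guide and 9.44 and 5.46% in double. Over all distal regions it covered 1.18, 1.37 and 1.54% in guide and 5.97 and 3.68% in double, so the rise was not confined to either set. In CSF3R the same shares were 3.12, 4.73 and 4.27% in the higher and 4.79, 6.23 and 6.08% in the lower regions. Control stood at 4.25 and 3.58% in the higher, 3.25 and 3.14% in the lower and 2.49 and 2.38% in all regions. Guide was thus the low group in each set.

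Whether the guide altered the response to CSF3R T618I was tested by the difference between double minus guide and CSF3R minus control. It passed at 840 distal regions (4.95%), 637 with a larger value in the presence of the guide and 203 with a smaller one, and at 17 windows (0.863%). The windows count was 0 without either control library, 5 without guide library 1, 3 without guide library 3 and 6 without CSF3R library 2 or 3, so the result at windows depends on single libraries. Of the 2179 regions higher in double 525 were among them, and 523 of those had a larger rise with the guide. This test contains double minus guide, so its direction within the called sets is partly fixed by how they were chosen. The minimum of 2 libraries also partly fixes the balance of 637 to 203. Of all tested regions 704 had peaks in double alone and could only give a larger value. Peaks in guide alone were found at 229, which could only give a smaller one. The count was 1371 without double library 1 and 2085 without double library 2, and 76 when a peak in at least 3 libraries was required.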

How the data were processed

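Each library gave a list of peak positions as deposited (chromosome, start, end), values of a kind other than counts or signal, with no height or score. Per the submitters' processing notes, the authors used Bowtie2 2.4.1, deepTools 3.5 and mm10; the peak caller is not given in the sources used here. Peaks of the 10 H3K4me1 libraries were merged. A distal region had a peak in 2 libraries or more and lay over 5 kb away from all protein-coding starts. Starts came from RefSeq promoter entries of GRCm38.p6 (17492 genes); for 4395 genes without an entry used here the gene end with the higher mean coverage was taken, without strand. Covered fractions of regions and of 10 kb windows were compared by limma 3.58.1 (R 4.3.3, 1 mean per genotype, all 10 libraries, moderated variance, 2-sided, Benjamini-Hochberg per comparison, threshold 0.05). The script was tested on simulated data. Python 3.11.15 was used with scipy 1.17.1, pandas 2.3.3, matplotlib 3.10.9 and numpy 2.4.6.

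Named genes were up to 8 windows and 8 regions (1 per nearest gene) in each direction by size of the difference, up to 5 genes per direction with the most called regions, up to 2 per list by p, and 13 genes in every case, without Gm and Rik symbols; other members of the lists with called regions are named as examples chosen after their values were seen. The members and lists were chosen with earlier results of these data known. Alternatives were any overlap in place of the fraction, 2 kb in place of 5 or 10 kb, a minimum of 3 libraries, no minimum, removal of peaks under 400 bp or overlapping IgG peaks, log2 covered length as covariate, a replicate block, the 5 libraries alone, and leaving out each library. Where this left 1 double library, it is assumed to vary like the other groups.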

Additional observations from a re-analysis of the deposited data

Results flagged for a closer look

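The effect of CSF3R T618I with the guide (double minus guide) differed from that without it (CSF3R minus control) at 840 distal regions and 17 gene windows in limma's interaction test at an adjusted p under 0.05. Among the genes named by the rule the Cma1 window had a difference of differences of 0.396 (adjusted p = 0.0106) and the Myl10 window one of -0.62 (adjusted p = 0.0327). The named distal region near Dipk1b, inside which 1200 bp lay in IgG peaks, had a difference of differences of -0.652 (adjusted p = 0.0239), and double minus guide there turned to 0.0747 once peaks overlapping IgG peaks were removed. With a replicate block and without either control library no window passed this test: without control library 1 the adjusted p was 0.0791 at Cma1 and 0.205 at Myl10. At Myl10 it also missed the threshold without guide library 1 or 3, CSF3R library 1 or 3, or either double library, and at Cma1 without guide library 3. At the Dipk1b region it was lost without either control library or guide library 1 or 3 (adjusted p up to 0.0676), with the replicate block (0.0988), and with a minimum of 3 libraries (0.0914). The cause of these differences was not tested.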

How the results depend on the processing

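The counts of higher and lower distal regions stayed within 1.5 times their value in all settings other than those that left out a library, at 1622 to 2384 and 768 to 1362. The count for the interaction moved to 1633 with any overlap in place of the fraction, to 250 with a replicate block and to 76 with a minimum of 3 libraries. Higher windows numbered 56 with any overlap, where only 452 windows varied, and 109 with 2 kb; lower windows numbered 64, 60 with 2 kb and 285 with covered length as covariate. The difference in mean width turned to 0.0264 (log2) without peaks under 400 bp. Leaving out each library gave 1479 to 3376 higher and 588 to 1455 lower regions, 571 to 2085 for the interaction, 419 to 1001 regions shared with CSF3R, 93 to 214 higher and 59 to 232 lower windows, -0.1336 to 0.4027 for covered length, -0.1578 to 0.0757 for width, 0.0242 to 0.327 for peak number and 0.6374 to 1.4305 percentage points for the distal share. Calls kept in all 10 of these fits were 1196 of 2179 higher and 394 of 1035 lower regions, and 84 of 202 higher and 41 of 172 lower windows. Of the named results 22 of 39 called windows and 27 of 41 called regions kept their call in all 10.

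With a replicate block the counts were 2044 higher and 772 lower regions and 242 higher and 155 lower windows. Only 2 replicate numbers are shared by the groups. Deviations of same-numbered libraries had correlations of -0.0009 and -0.106 over distal regions and of 0.215 and 0.0251 over gene windows. The numbers are not taken as a pairing, and these values cannot tell whether libraries were paired.

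Without peaks overlapping IgG peaks the difference turned to -0.0112 at Cebpe, -0.0049 at Csf3r, 0.0341 at Krt80, -0.0579 at Ly6a, -0.1809 at Nfe2, 0.039 at Pde7b, 0.0017 at Socs3, -0.2764 at a Socs1 region, -0.5763 at the Lyrm9 region and 0.0747 at the Dipk1b region. It turned to -0.0333 at Klf2 and 0.0083 at Socs3 with 2 kb and to -0.0212 at Csf3r with covered length as covariate. Leaving out a library turned it at Csf3r (-0.1053 to 0.2055), Rps9 (-0.106 to 0.063) and Spi1 (-0.01 to 0.1175); the cause was not tested. Depth is unknown, so regions absent from a list may lie below the caller's threshold.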

Other observations

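Chemokine, interleukin and adhesion genes, which recruit and position leukocytes, were higher at 4 and lower at 3 of 20 tested windows, against 10.3% and 8.74% of all windows. Ccl9, a macrophage inflammatory chemokine, stood at 0.585, 0.34 and 0.525 in guide and at 0.864 and 0.859 in double (difference 0.378 ± 0.0638 SE, adjusted p = 0.00489). In control it stood at 0.765 and 0.73 and in CSF3R at 0.829, 0.809 and 0.824, so guide was the low group. Cxcl2, a neutrophil chemokine, stood at 0.0052, 0 and 0 in guide and 0.165 and 0.12 in double (difference 0.141 ± 0.0343 SE, adjusted p = 0.0219). That call was lost without guide library 1, guide library 3 or double library 1 (adjusted p up to 0.0969).

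Genes of Polycomb complexes and their known target locus also had distal gains. Eed, a core subunit of the complex that places H3K27me3, had 4 of 8 regions higher (2 to 6 when each library was left out) and held 2.45, 1.5 and 1.85 kb of peaks in guide, 18.7 and 10.1 kb in double and 15.5, 12.8 and 17.4 kb in CSF3R. At chr7:90028751-90031450 double stood at 0.944 and 0.833 and CSF3R at 0.907, 0.87 and 0.944, with 0 in guide and control (difference 0.889 ± 0.0775 SE, adjusted p = 0.000334). Cdkn2b, a cyclin-dependent kinase inhibitor, had 3 of 4 regions higher (3 to 4 when each library was left out, but 1 when a peak in at least 3 libraries was required), of which 2 had no peak outside double. The widest (chr4:89457801-89460200, 148 kb away) stood at 1 and 0.917 in double, 0.521, 0.333 and 0.854 in CSF3R and 0 in guide and control (difference 0.958 ± 0.141 SE, adjusted p = 0.00279). The Polycomb, Asxl and Bap1 list as a whole had 5 of 38 regions higher (13.2%), near the 12.8% of all regions, and none lower.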
